A study of Homo sapiens with 10 samples.

Results

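Ribosome biogenesis is described here through 37 genes given by name, which code for factors that transcribe, modify and assemble ribosomal RNA in the nucleolus, together with the transcription factor MYC. All 37 were found once among the 32738 genes of the deposited count table by their gene name, and 36 passed the filter on low counts that left 12733 genes for testing. The gene that did not pass was BOP1, which had 0 counts in all 10 libraries. The cells were HepG2, a human hepatoma line, kept for 17 h in growth medium with 2 µg/ml tunicamycin or in growth medium alone, and labelled tunicamycin and control. The labels name no vehicle for the control, and the labels give no other difference between the groups. Each condition has 5 libraries from experiments performed on separate days, so that a replicate number joins a control and a tunicamycin library. Tunicamycin blocks N-linked glycosylation, which leaves unfolded proteins in the endoplasmic reticulum (ER).

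A ribosome is built from ribosomal RNA that RNA polymerase I transcribes as a long precursor in the nucleolus. Small nucleolar ribonucleoproteins (snoRNPs) modify this precursor, those of the box C/D kind by methylation of the ribose and those of the box H/ACA kind by conversion of uridine to pseudouridine. The small subunit processome folds and cleaves the part that becomes the small (40S) subunit, and other factors, among them the complex of PES1, BOP1 and WDR12, process the part that becomes the large (60S) subunit. MYC is a transcription factor that binds the E-box sequence with its partner MAX and is known for raising the expression of many of these genes in growing cells. In the liver, ribosome biogenesis is best known for its rise during regeneration and in tumours.

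QuantSeq libraries count polyadenylated transcripts at their 3′ end. They held 4242538 to 4888292 counts in control and 2234682 to 5029864 in tunicamycin, where replicate 5 was the smallest. The mitochondrial share was 22.7 to 25.2% in control libraries and 18.3 to 28.8% in tunicamycin libraries. All 5 genes chosen to check the treatment, HSPA5, DNAJB9, SDF2L1, HERPUD1 and DDIT3, were higher with tunicamycin, with log2 fold changes from 1.42 for DDIT3 to 3.76 for DNAJB9. All 10 hepatocyte markers were detected, from 433 normalized counts of HNF4A to 32551 of APOB on average in control libraries, and 5 of them were lower with tunicamycin. Of 6 markers of blood, vessel and connective tissue cells found, PTPRC, COL1A1, COL3A1 and VWF were at or near 0 (at most 0.945 normalized counts in either condition), CD68 had 27.8 in control and 15.6 in tunicamycin, and LYZ had 1346 and 1694. The sum of these 6 markers was 1167 to 1639.6 in control and 1237 to 2046 in tunicamycin libraries, nearly all of it LYZ, and the part of such cells in the results was not tested.

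With tunicamycin, 15 of the 36 tested genes were higher and 2 were lower, by the quasi-likelihood test of edgeR with p adjusted by the Benjamini-Hochberg method over every tested gene and a threshold of 0.05. Levels are given as normalized counts, that is, counts divided by a library's scaled size and multiplied by the mean of those sizes, and a mean is followed by ± the SD of its 5 libraries. The higher genes are 41.7% of the tested members, against 17.6% of all genes tested, and the lower genes 5.56%, against 16.6%. MYC rose most. The other 14 higher genes, among them the polymerase I factor RRN3, the helicase DDX21 and the box H/ACA proteins NOP10, GAR1 and DKC1, rose by 1.17-fold to 1.94-fold. The 2 lower genes, FBL and NOP56, both code for core proteins of box C/D snoRNPs. The median log2 fold change of the 36 members was 0.21, beside -0.00 for all genes tested, and in single replicate pairs the members' median lay between 0.14 and 0.31.

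**Figure D1:**
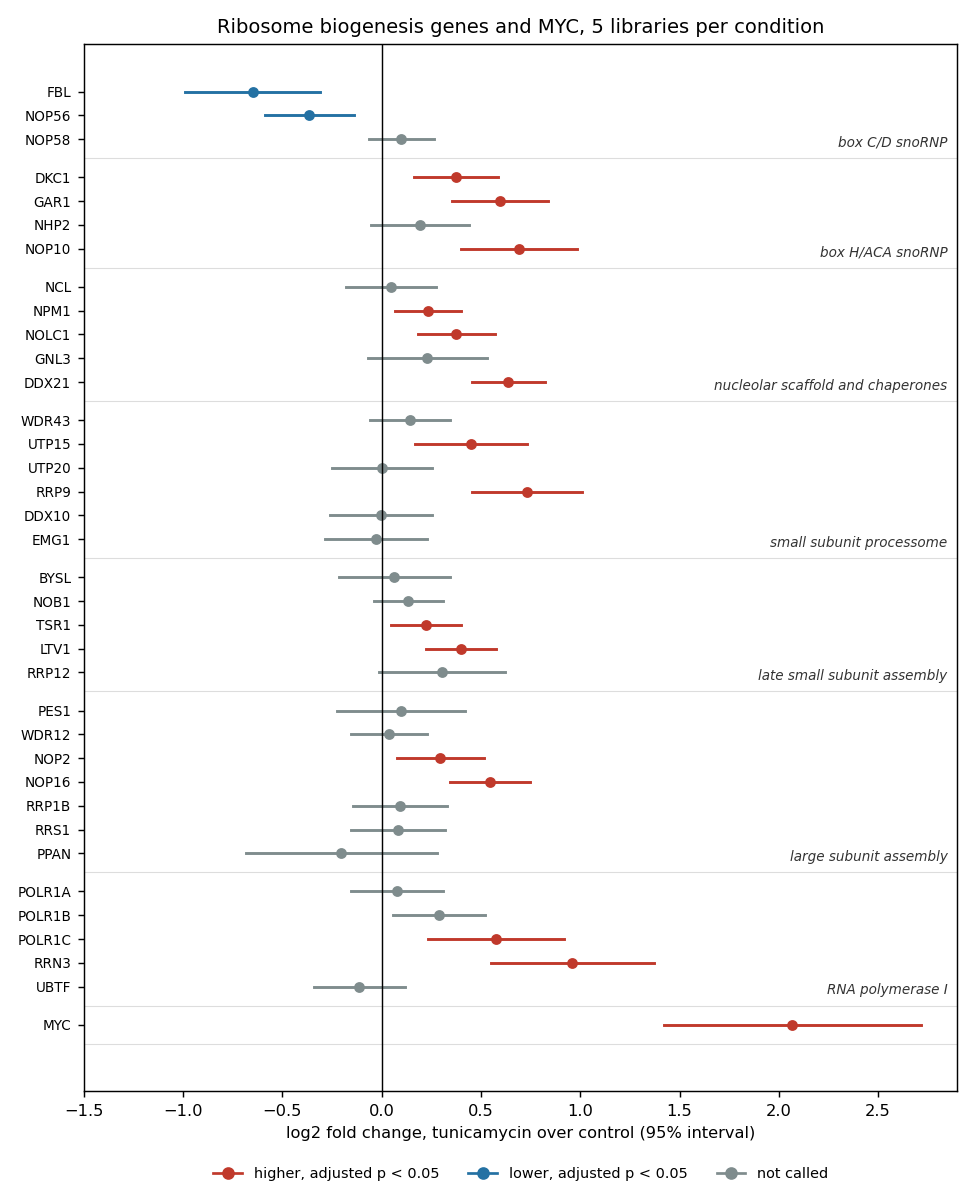
Log2 fold change of each tested member, tunicamycin over control, with its 95% interval from edgeR's quasi-likelihood fit (not adjusted for the number of genes), arranged by role, with called genes in red (higher) or blue (lower). MYC stands at 2.07, the next highest gene, RRN3, at 0.96, and FBL and NOP56 alone have intervals below 0.

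In 12 of the tested members every tunicamycin library lay above every control library, which was so for 11.7% of all genes tested, and in 0 did every tunicamycin library lie below every control library, which was so for 11.9%. All 15 higher genes were higher in 5 of 5 replicate pairs, and both lower genes were lower in 5 of 5. The pairs hold the same values as the test, so this is no separate evidence for the calls. With or without a call, 19 of the 36 tested members were higher in all 5 pairs and 2 lower. Among the 12733 genes tested, 2649 were higher and 2592 lower in all 5. Of the higher genes, DKC1, NOP2 and RRN3 overlapped between the conditions. When library sizes were scaled by total counts alone in place of the trimmed mean of M-values (TMM), 11 members were higher and 2 lower, and DKC1, NPM1, TSR1 and NOP2 were no longer called. Among all genes, 51.4% of the calls were higher with TMM and 40.8% with total counts. Of all genes tested, 17.6% were higher and 16.6% lower with TMM, and 13.9% and 20.2% with total counts. These are relative levels in bulk RNA: a change that all transcripts of a cell share would not be seen, and fewer cells with a transcript cannot be told apart from less of it in each cell.

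MYC, the transcription factor, had 13.8, 21.4, 38.5, 46.6 and 26.4 normalized counts in control replicates 1 to 5 and, with tunicamycin, 55.7, 118, 104, 161 and 199.8. No tunicamycin library was as low as the highest control library, although both conditions spread widely, with coefficients of variation of 44.9% in control and 43.1% in tunicamycin, the largest among the members in each. MYC rose 4.19-fold, from 29.3 ± 13.2 to 128 ± 55 normalized counts, and edgeR's quasi-likelihood test gave a log2 fold change of 2.07 with a standard error of 0.31 (adjusted p = 3.89e-05). The log2 ratio was 1.98, 2.44, 1.42, 1.78 and 2.89 in replicate pairs 1 to 5. Fits that omitted one library gave log2 fold changes between 1.87 and 2.31. It exceeded that of 99.1% of the genes tested. The transcript was sparse before treatment, with raw counts from 16 to 119 over the 10 libraries, so that its level in a single control library is imprecise.

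**Figure D2:**
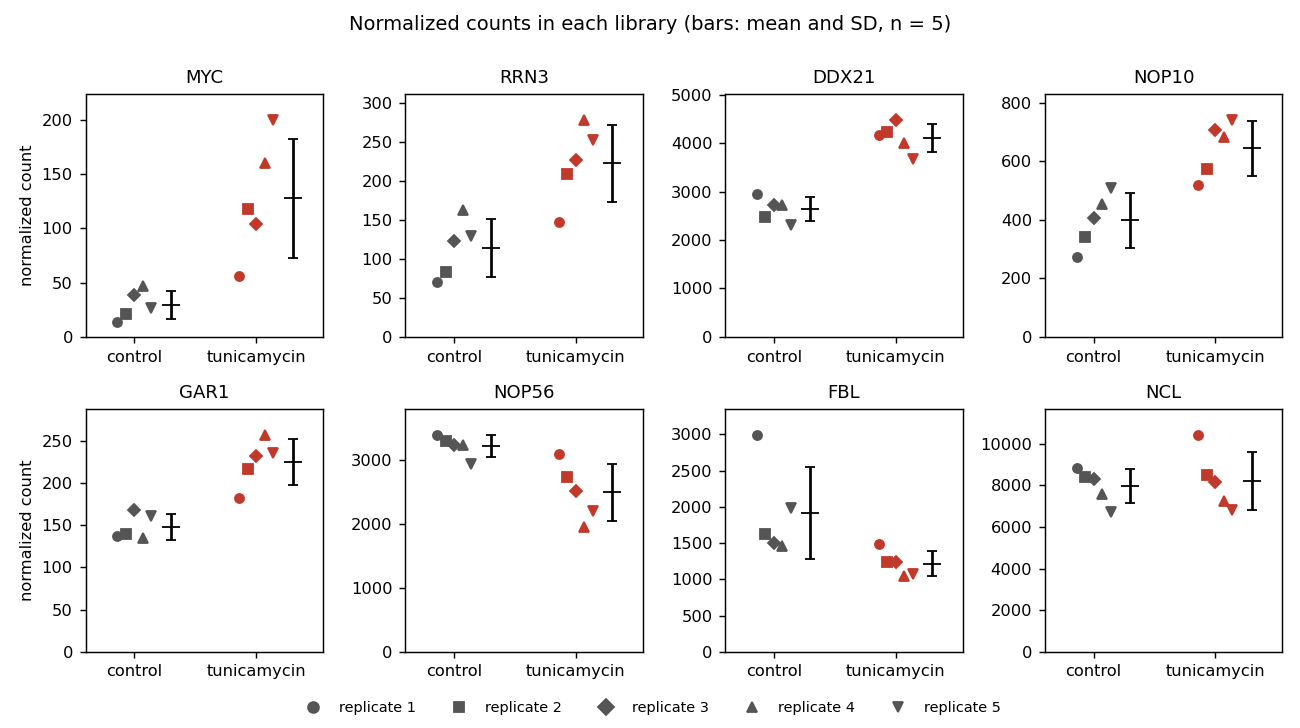
Normalized counts of 8 members in each library, control in grey and tunicamycin in red, with a marker shape for each replicate and a bar for the mean and SD of 5 libraries. MYC, DDX21, NOP10 and GAR1 do not overlap between the conditions, RRN3, NOP56 and FBL overlap, and NCL has its highest library in replicate 1 and its lowest in replicate 5 in both conditions.

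Of 5 genes of RNA polymerase I and its cofactors, 2 rose with tunicamycin (40% of them, against 17.6% of all genes tested) and none fell. RRN3 is the initiation factor TIF-IA, which links polymerase I to its promoter and is a known target of growth signals. It had 70.6, 82.9, 122, 162 and 129 normalized counts in control replicates 1 to 5 and, with tunicamycin, 148, 208, 227, 278 and 252. Only tunicamycin replicate 1 fell among the control libraries, and within every pair the tunicamycin library was higher. RRN3 rose 1.94-fold (log2 fold change 0.96 with a standard error of 0.20, adjusted p = 0.000841, edgeR's quasi-likelihood test). The gene lies on the minus strand of chromosome 16, at 15060033 to 15094311 in GRCh38, in a region with duplicated copies of it, so that reads of RRN3 may have been shared with or lost to these copies.

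POLR1C, a subunit that polymerases I and III share, had 58.5, 93.6, 99.7, 107 and 98.6 normalized counts in control replicates 1 to 5 and, with tunicamycin, 134, 112, 151, 172 and 109. Every tunicamycin library was above every control library, and control replicate 1 stood lowest. It rose 1.49-fold (log2 fold change 0.58 with a standard error of 0.16, adjusted p = 0.00993). POLR1B, the second largest subunit, was higher in 5 of 5 pairs but missed the threshold, with a log2 fold change of 0.29 (95% interval 0.05 to 0.52, adjusted p = 0.0524). With the replicate block it passed in edgeR (adjusted p = 0.0411) and did not pass in DESeq2 (adjusted p = 0.121). POLR1A, the largest subunit, had a log2 fold change of 0.08 (95% interval -0.15 to 0.31), and UBTF, which binds the ribosomal DNA promoter, one of -0.11 (-0.34 to 0.12). In the ratio of POLR1C to POLR1A counts, which does not depend on the scaling of libraries, control libraries gave 0.325 to 0.533 and tunicamycin libraries 0.521 to 0.776, with a small overlap. The lowest control ratio was that of replicate 1. This ratio was chosen after the values of both genes had been seen and is given without a test.

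Among members of the 2 kinds of snoRNP, those called for box C/D were lower and those called for box H/ACA higher. Of the 3 members that code for core proteins of box C/D snoRNPs, FBL and NOP56 fell and NOP58 was not called. The 2 that fell are 66.7% of the 3, against 16.6% lower among all genes tested. SNU13, a core protein of the same snoRNPs that is not a member, was higher (log2 fold change 0.26, adjusted p = 0.029, edgeR's quasi-likelihood test). FBL is fibrillarin, the methyltransferase that adds the ribose methyl group, and lies on the minus strand of chromosome 19, at 39834458 to 39846379 in GRCh38. It had 2989, 1618, 1507, 1455 and 1988 normalized counts in control replicates 1 to 5 and, with tunicamycin, 1489.9, 1236, 1232, 1049.6 and 1069. Control replicate 1 was far above the other control libraries, and tunicamycin replicate 1 lay just above the lowest control library. FBL was 1.57-fold lower with tunicamycin (log2 fold change -0.65 with a standard error of 0.16, adjusted p = 0.00401, edgeR's quasi-likelihood test), and without control replicate 1 the log2 fold change was -0.43 (adjusted p = 0.00504).

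NOP56, a scaffold protein of the same particle, had 3378, 3293, 3219.7, 3233 and 2925 normalized counts in control replicates 1 to 5 and, with tunicamycin, 3084, 2722, 2505, 1944 and 2203. Only tunicamycin replicate 1 reached the range of the control libraries. NOP56 was 1.29-fold lower (log2 fold change -0.36 with a standard error of 0.11, adjusted p = 0.012), and it lies on the plus strand of chromosome 20, at 2652593 to 2658393 in GRCh38. Its partner NOP58 was not called, with 1499.9 ± 48.7 normalized counts in control and 1604 ± 99.2 in tunicamycin and a log2 fold change of 0.10 (95% interval -0.07 to 0.26). NOP58 had the lowest coefficient of variation of all members in control, 3.25%. The ratio of NOP56 to NOP58 counts within a library was 1.99 to 2.34 in control and 1.28 to 1.79 in tunicamycin. These ranges did not overlap, but the ratio was chosen after the values of both genes had been seen and is given without a test.

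Of the 4 box H/ACA proteins, 3 rose (75% of them, against 17.6% of all genes tested) and none fell. NOP10, the smallest of them, had 275, 342, 408, 456 and 510.3 normalized counts in control replicates 1 to 5 and, with tunicamycin, 519, 573, 706, 683 and 741. The conditions did not overlap by a narrow margin, since control replicate 5 and tunicamycin replicate 1 were close. NOP10 rose 1.61-fold (log2 fold change 0.69 with a standard error of 0.14, adjusted p = 0.000797, edgeR's quasi-likelihood test) and lies on the minus strand of chromosome 15, at 34339159 to 34343180 in GRCh38. GAR1 had 138, 140, 168, 134 and 162 normalized counts in control replicates 1 to 5 and, with tunicamycin, 182, 217, 232, 257 and 236, with no overlap. It rose 1.51-fold (log2 fold change 0.59 with a standard error of 0.11, adjusted p = 0.000514). DKC1 is dyskerin, the pseudouridine synthase of the particle and a part of telomerase. It rose 1.3-fold, from 1135 ± 148 to 1469 ± 167 normalized counts (log2 fold change 0.37 with a standard error of 0.10, adjusted p = 0.00764), with an overlap between the highest control and the lowest tunicamycin libraries and a higher value in 5 of 5 pairs. NHP2 was not called, with a log2 fold change of 0.19 (95% interval -0.05 to 0.44). The ratio of FBL to DKC1 counts, the catalytic proteins of the 2 particles, was 1.36 to 2.2 in control and 0.798 to 0.866 in tunicamycin, also chosen after their values had been seen and without a test.

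Among 5 scaffold proteins and chaperones of the nucleolus, 3 rose (60% of them, against 17.6% of all genes tested). DDX21, an RNA helicase that acts on polymerase I transcription and on snoRNAs, had 2947, 2479, 2727, 2724 and 2319 normalized counts in control replicates 1 to 5 and, with tunicamycin, 4166, 4226, 4470, 4003 and 3670.3. The lowest tunicamycin library was above the highest control library by more than the range of the control libraries. DDX21 rose 1.56-fold with the smallest adjusted p of all members (log2 fold change 0.64 with a standard error of 0.09, adjusted p = 1.48e-05, edgeR's quasi-likelihood test). NOLC1, a chaperone of snoRNPs also called Nopp140, rose 1.3-fold, from 464 ± 54.6 to 601 ± 36.4 normalized counts (adjusted p = 0.00384). NPM1, nucleophosmin, rose 1.18-fold (log2 fold change 0.23, adjusted p = 0.03). This call was lost in 4 of 10 leave-one-out fits, with an adjusted p of up to 0.0781, and NPM1 has processed copies elsewhere in the genome that could share its reads.

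NCL, nucleolin, was the most abundant member, with 8842, 8427, 8303, 7589.6 and 6745 normalized counts in control replicates 1 to 5 and, with tunicamycin, 10418, 8499, 8158, 7249 and 6822. Its replicates differed more from each other than the conditions did, and its log2 fold change was 0.04 (95% interval -0.18 to 0.27). GNL3, nucleostemin, was not called either, with a log2 fold change of 0.23 (-0.07 to 0.53).

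In the small subunit processome 2 of 6 genes rose (33.3% of them, against 17.6% of all genes tested). RRP9, the protein that marks the U3 snoRNP, had 133, 106, 101, 90.5 and 109.8 normalized counts in control replicates 1 to 5 and, with tunicamycin, 187, 152, 161, 179 and 228. The conditions did not overlap. RRP9 rose 1.66-fold (log2 fold change 0.73 with a standard error of 0.13, adjusted p = 0.000284, edgeR's quasi-likelihood test) and lies on the minus strand of chromosome 3, at 51933429 to 51941904 in GRCh38. UTP15, a subunit of the early complex that binds the 5′ part of the precursor, rose 1.36-fold, from 60.4 ± 3.85 to 83.1 ± 8.48 normalized counts (adjusted p = 0.0144). Its call was lost in DESeq2 with the replicate block (adjusted p = 0.0602). UTP20, DDX10 and EMG1, which are a scaffold, a helicase and a methyltransferase, had log2 fold changes of -0.00, -0.01 and -0.03, with 95% intervals of -0.25 to 0.25, -0.26 to 0.25 and -0.28 to 0.23. WDR43 was not called (log2 fold change 0.14, -0.06 to 0.34), although it was higher in 5 of 5 pairs.

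Of 5 factors of late small subunit assembly, LTV1 and TSR1 rose (40% of them, against 17.6% of all genes tested). LTV1, which leaves the particle shortly before it matures, had 603, 687, 778, 635 and 638 normalized counts in control replicates 1 to 5 and, with tunicamycin, 845, 932, 864, 907 and 859.6. Control replicate 3 stood nearest to the tunicamycin libraries, below all of them. LTV1 rose 1.32-fold (log2 fold change 0.40 with a standard error of 0.08, adjusted p = 0.0012, edgeR's quasi-likelihood test) and had the lowest coefficient of variation among the members with tunicamycin, 4.13%. TSR1, a GTPase-like factor, rose 1.17-fold, from 368 ± 24.3 to 429 ± 20.6 normalized counts, and had the weakest call of all (adjusted p = 0.0472). It was lost in 9 of 10 leave-one-out fits and in 4 other alternatives, with an adjusted p of up to 0.27. BYSL, the endonuclease NOB1 and RRP12 were not called, with log2 fold changes of 0.06 (95% interval -0.21 to 0.34), 0.13 (-0.04 to 0.31) and 0.30 (-0.01 to 0.62). RRP12 was called without control replicate 1 (log2 fold change 0.42, adjusted p = 0.0331).

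Of 7 tested factors of large subunit assembly, NOP16 and NOP2 rose (28.6% of them, against 17.6% of all genes tested) and none fell. NOP16 had 193, 204, 228, 228 and 183 normalized counts in control replicates 1 to 5 and, with tunicamycin, 282, 308, 305, 299 and 325, with no overlap and little spread in either group. It rose 1.46-fold (log2 fold change 0.55 with a standard error of 0.10, adjusted p = 0.000215, edgeR's quasi-likelihood test). NOP2, a methyltransferase of the large ribosomal RNA, rose 1.23-fold, from 228 ± 21.3 to 281 ± 31.9 normalized counts (adjusted p = 0.0334), and was not called in 6 of 10 leave-one-out fits, with an adjusted p of up to 0.0946, nor in DESeq2 with the replicate block (adjusted p = 0.0547). PES1 and WDR12, of the complex with BOP1, had log2 fold changes of 0.10 (95% interval -0.23 to 0.42) and 0.04 (-0.15 to 0.23). RRP1B and RRS1 were not called, with 0.09 (-0.14 to 0.33) and 0.08 (-0.16 to 0.32). BOP1 was listed at 0 in every library, and a count of 0 allows up to 3 counts in each by counting error alone. The current GENCODE annotation gives BOP1 under another Ensembl identifier than the table does, and no statement on its expression is made.

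PPAN had the lowest level of the tested members in tunicamycin, 33 ± 12.5 normalized counts against 39.2 ± 6.4 in control. It had the widest interval of the members without a call, -0.69 to 0.28 around a log2 fold change of -0.20. Its last exon is shared with a readthrough transcript into P2RY11, and the last exons of NOP2 and RRS1 also overlap a gene on the same strand, so that these counts are uncertain. In 7 members the last exon overlaps an exon on the other strand, NOP58, NHP2, GNL3, EMG1, NOB1, TSR1 and POLR1B, and reads of both genes cannot be told apart there unless the strand was used in counting. Over all 19 members without a call, log2 fold changes ran from -0.20 to 0.30. For 15 of them the 95% interval lay within 0.5 of 0 on the log2 scale, and for GNL3, RRP12, PPAN and POLR1B it reached further.

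The spread between libraries was partly shared by the libraries of one day, for the highest values mostly in replicate 1. In 20 of the 36 tested members the control and the tunicamycin library with the highest value had the same replicate number, and in 13 the lowest libraries had the same number. Of the shared highest values, 13 were in replicate 1, 4 in replicate 4, 3 in replicate 5 and 0 in replicates 2 and 3. Replicate 1 was highest in 15 members in control and in 21 in tunicamycin, 13 of them shared. NCL, NOP56, DKC1 and WDR43 were among these, while NOP10, RRN3, POLR1C and MYC were not. Tunicamycin replicate 1 was the lowest of its condition for NOP10, RRN3, GAR1 and MYC. The number of members higher with tunicamycin was 31 in replicate pair 1 and 27, 27, 24 and 26 in pairs 2 to 5. Without tunicamycin replicate 1 the members' median log2 fold change was 0.13, against 0.21 with it. Counts of the members together made up 0.651 to 0.791% of a control library and 0.648 to 0.895% of a tunicamycin library, ranges that overlap.

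**Figure D3:**
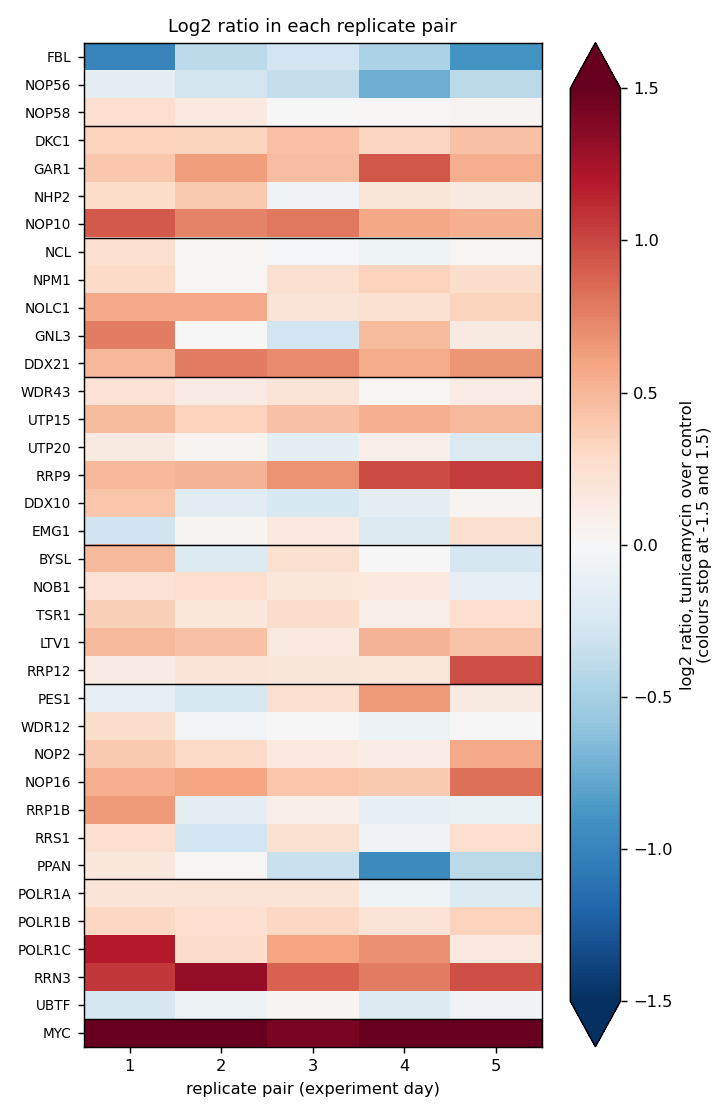
Log2 ratio of tunicamycin over control for each tested member (rows, arranged by role) in each replicate pair (columns), computed from normalized counts with 0.5 added, in red where tunicamycin was higher and blue where it was lower (colours stop at 1.5 in either direction). MYC and RRN3 are red and FBL and NOP56 blue in all 5 pairs, and GNL3, DDX10 and RRP1B change sign between pairs.

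The promoters of the members were searched for the E-box CACGTG, which MYC with MAX is known to bind and which reads the same on both strands. The windows run from 250 bases before to 50 bases after a gene's annotated start in RefSeq (GRCh38.p14), and a gene with several starts has several windows. MYC, NOP58, NOLC1, RRP12, BOP1, RRP1B and RRS1 had no window and were not searched. Of 30 members with a window, 12 held CACGTG in at least 1 (40%), beside 12.7% of the 8917 tested genes with a window. In the 6 lists of other ribosome biogenesis factors described below, 40 of 142 tested genes with a window held it (28.2%). In the list of the MYC network, also described below, 5 of 16 did (31.2%). Of genes with a single start it was 9 of 22 members (40.9%), beside 10.7%, and over all 35116 windows of this length 7.26%. Of 13 copies, 12 began within 40 bases of a start. The following windows, from -90 to +30 around the start, show the copy in a member that fell (FBL), in 2 that rose (NOP10 and RRP9) and in one whose level was the same in both conditions to 2 decimals of its log2 fold change (UTP20), with CACGTG in capitals (NOP10 has another copy further upstream).
FBL, chr19:39846350-39846469, minus strand: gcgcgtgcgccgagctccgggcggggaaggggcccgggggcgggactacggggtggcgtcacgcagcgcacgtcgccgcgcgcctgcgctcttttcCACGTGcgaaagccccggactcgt
NOP10, chr15:34343107-34343226, minus strand: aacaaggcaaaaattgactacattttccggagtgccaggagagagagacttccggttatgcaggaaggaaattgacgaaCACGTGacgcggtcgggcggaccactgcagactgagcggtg
RRP9, chr3:51941875-51941994, minus strand: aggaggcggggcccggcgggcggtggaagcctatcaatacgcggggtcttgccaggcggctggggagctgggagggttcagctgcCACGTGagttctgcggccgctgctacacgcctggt
UTP20, chr12:101280015-101280134, plus strand: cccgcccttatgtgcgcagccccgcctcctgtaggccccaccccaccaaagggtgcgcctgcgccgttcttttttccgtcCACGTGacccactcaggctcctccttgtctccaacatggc

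Both members with and members without the E-box rose. Of the 12 with it, 6 were higher and 1 lower, with a median log2 fold change of 0.26 between -0.65 and 0.73. Of the 18 without it, 7 were higher and 1 lower, with a median of 0.16 between -0.36 and 0.96, and RRN3, POLR1C, NOP16, DKC1 and NPM1 were among those that rose. The search for other motifs could not cover MYC, which had no window. No window of a member held the ER stress response element (CCAAT and CCACG 9 bases apart, either strand) or TGATGNAA, a core of the sites that ATF4 with C/EBP factors is known to bind (either strand). These were found in 0.146% and 2.66% of tested genes with a window. A match in these letters is a description of the sequence and not a binding site measured here.

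Other factors of ribosome biogenesis were taken in 6 lists, none of which holds a member. Of 168 tested genes, edgeR called 47 higher and 13 lower with tunicamycin (28% and 7.74%, against 17.6% and 16.6% of all genes tested). The median log2 fold change was 0.14. The list of large subunit factors had 15 higher and 1 lower of 50 tested and a median of 0.19, with RSL24D1, an assembly factor related to a ribosomal protein, at 1.01 (standard error 0.14) and the methyltransferase FTSJ3 at -0.49 (0.13). Small subunit processome genes had 11 higher and 4 lower of 40 tested, a median of 0.15, with the processome subunit UTP6 at 1.20 and the RNA-binding protein NOP9 at -0.68. In late small subunit assembly, 5 higher and 1 lower of 12 tested, PNO1, which holds NOB1 in check, had 0.64 and TSR2, a chaperone of a ribosomal protein, -0.49. Of snoRNP assembly factors, 4 of 10 rose and 0 fell, with the ATPase RUVBL1 at 0.72.

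Subunits and factors of polymerases I and III had 7 higher and 3 lower of 33 tested (21.2% and 9.09%, against 17.6% and 16.6% of all genes tested). In this list GTF3C6, of the factor TFIIIC, had a log2 fold change of 1.06 and BRF1, of TFIIIB, one of -0.64. The call of BRF1 was lost in 5 of 10 leave-one-out fits, with an adjusted p of up to 0.126. The RNA exosome and nucleases of the precursor had 5 higher and 4 lower of 23 tested (21.7% and 17.4%, near the 17.6% and 16.6% of all genes tested), the exosome cap subunit EXOSC3 at 1.21 and the cap subunit EXOSC2 at -0.54. Of 16 listed host genes of snoRNAs, 7 were tested, of which 4 rose and 0 fell (57.1% higher, against 17.6% of all genes tested). Their log2 fold changes ran from -0.60 to 1.97. ZFAS1, a noncoding RNA whose introns hold box C/D snoRNAs, rose 3.92-fold, from 814 ± 232 to 3189.6 ± 623 normalized counts (adjusted p = 8.64e-08).

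Genes of partners, competitors and regulators of MYC changed in both directions, with 5 higher and 5 lower of 19 tested and a median log2 fold change of -0.14. The calls are 26.3% in either direction, against 17.6% higher and 16.6% lower among all genes tested. MAX, the obligatory partner of MYC, rose 1.77-fold, from 182 ± 23.2 to 323 ± 53.7 normalized counts (log2 fold change 0.82 with a standard error of 0.12, adjusted p = 4.54e-05, edgeR's quasi-likelihood test). MXD1 and MXI1, which pair with MAX and repress, rose as well, with log2 fold changes of 1.04 (adjusted p = 0.000168) and 0.60 (0.0183), and MXD4 of the same family fell (-0.36, 0.0137). MXI1 lost its call without control replicate 3, control replicate 5 or tunicamycin replicate 1, with an adjusted p of up to 0.0592. MXD3 (-0.55, 95% interval -1.07 to -0.03), MNT (-0.05, -0.40 to 0.30) and MGA (-0.17, -0.41 to 0.06) were not called.

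MLX, which pairs with MLXIPL and MLXIP, had 92.1, 97.2, 95.4, 89.6 and 80.3 normalized counts in control replicates 1 to 5 and, with tunicamycin, 106, 118, 113, 412 and 297. Tunicamycin replicates 4 and 5 were far above the other 3, which lay just above the control libraries. Its log2 fold change was 1.15 (adjusted p = 0.00628, edgeR's quasi-likelihood test) and without tunicamycin replicate 4 it was 0.73 (adjusted p = 0.0251). MLXIPL, the carbohydrate response factor ChREBP of the liver, fell 1.93-fold, from 1863 ± 339 to 969 ± 239.8 normalized counts. MLX was not called in DESeq2 with the replicate block (adjusted p = 0.0763), and MLXIP had a log2 fold change of -0.13 (-0.36 to 0.10). Of proteins that act on the stability or activity of MYC, the ubiquitin ligase subunit SKP2 (-0.92) and the phosphatase inhibitor CIP2A (-0.79) fell, and FBXW7 (-0.14, 95% interval -0.42 to 0.15), USP28 (-0.43, -0.89 to 0.02), ZBTB17 (-0.16, -0.54 to 0.21), MYCBP (0.30, -0.19 to 0.78) and WDR5 (0.20, -0.06 to 0.45) were not called. TRRAP, a coactivator, was called at low counts (from 12.5 ± 7.4 to 30.8 ± 17.7 normalized counts, log2 fold change 1.18, adjusted p = 0.03) and was called in only 3 of 10 leave-one-out fits. The other family genes MYCN and MYCL were too low to be tested, with at most 4.33 normalized counts on average.

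Genes outside ribosome biogenesis that MYC is known to activate had 8 higher and 1 lower of 24 tested, with a median log2 fold change of 0.11. RCC1, the exchange factor of the GTPase Ran, rose most (2.44-fold, from 141 ± 51.4 to 347 ± 86.5 normalized counts, adjusted p = 0.000113 by edgeR), and PTMA, prothymosin alpha, was the gene that fell (1.35-fold, adjusted p = 0.00401). Of 7 genes that MYC is known to repress, 3 rose and 3 fell, with TXNIP, an inhibitor of thioredoxin, at 0.83 and NDRG2, a differentiation gene, at -1.16. The log2 fold changes of this list ran from -1.16 to 2.53, and the highest was that of a called gene that the rule for naming left out. The shares higher and lower were 33.3% and 4.17% for the activated list and 42.9% and 42.9% for the repressed list. Among all genes tested they were 17.6% and 16.6%.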

How the data were processed

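RNA from 5 control and 5 tunicamycin cultures of HepG2 was sequenced from its 3′ ends. The authors processed the reads with the nf-core RNA-Seq pipeline at default settings on hg19 with Ensembl transcript definitions and deposited raw counts per gene. The aligner, the counting program and the strand setting are not given in the sources used here. Counts were not divided by transcript length, since reads come from the 3′ end.

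Members were matched by gene name. The members and the other lists were chosen with earlier results of these data known. Genes were filtered with filterByExpr (minimum count 2, minimum total 10, conditions as groups), as in the study's methods, scaled by TMM and tested with edgeR 4.0.16 (R 4.3.3) by the quasi-likelihood test (design: condition), with Benjamini-Hochberg adjustment at 0.05 over all 12733 genes. Standard errors were derived from F. The test was checked on simulated counts. The study's own test, DESeq2 (1.42.0 here), was an alternative, beside other scalings and filters, the replicate block, thinning to the smallest library, removal of mitochondrial genes and leaving out each library. The series text states that replicates come from separate days, so numbers pair libraries. Deviations of paired libraries from their group means, over 10736 genes, correlated at 0.32, 0.02, 0.04, 0.12 and 0.09 for replicates 1 to 5. For replicates 2 and 5 the tunicamycin library correlated more with a control library of another replicate.

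Genes named outside the members are the tested genes of the MYC network list (1 is not reported here), those of the treatment check and, for each other list, the most raised and the most lowered gene among called genes whose mean was at least 20 normalized counts and whose 5 pairs had one direction. Marker genes of hepatocytes and other cells were named outside this rule, after their values were seen, as a check of the cells. SNU13 was also named outside this rule, after its value was seen. Gene positions are from GENCODE on GRCh38, for 36 of 37 members matched by Ensembl identifier. One listed nuclease gene had 2 rows and was left out. Of the listed snoRNA host genes 8 of 16, and of the cell type markers PECAM1, had no row under the symbols used and were not analysed here. Intervals and floors cover counting and replicate error only.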

Additional observations from a re-analysis of the deposited data

Results flagged for a closer look

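In 5 of 78 groups of 5 values, 1 value stood apart from the remaining 4 by Dixon's criterion, where chance gives about 3.9. The groups are the normalized counts of each tested member in each condition, the total counts, the share of mitochondrial counts and the share of counts in the members. The values, in normalized counts, were 468 for EMG1 in control replicate 1 (others 301 to 321), 232 for POLR1A in control replicate 4 (others 179.9 to 188), 163 for POLR1A in tunicamycin replicate 5 (others 205 to 221), 58.5 for POLR1C in control replicate 1 (others 93.6 to 107) and 318 for UBTF in control replicate 1 (others 230.1 to 243). They fall in 3 libraries, and 3 of them are in control replicate 1, where EMG1 and UBTF were high and POLR1C was low. None of these 4 genes changed its call when that library was left out.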

How the results depend on the processing

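With 19 alternatives, 2 members were lower in each, and the number higher lay between 11 and 16 (12 to 15 with each library left out in turn). DESeq2, its size factors and the removal of mitochondrial genes changed no member's call. With library size as the only scaling, the members' median log2 fold change was 0.13, and for the 6 other ribosome biogenesis lists the median was 0.0573 and 31 genes were higher. The median of all genes tested also moved down with this scaling, from -0.00 to -0.08. With each library left out the members' median lay between 0.13 and 0.22, lowest without tunicamycin replicate 1. The replicate block gave 16 higher members, with POLR1B added, a median of 0.21 and 53 higher and 18 lower genes in the 6 lists, and it changed no other member's call. DESeq2 with the block did not call POLR1B and lost UTP15, TSR1 and NOP2, leaving 12 higher members. No called direction was reversed in any alternative. The filter with default minimums added POLR1B, no filter lost NPM1 and TSR1, and thinning to the smallest library lost TSR1. The cause of these changes was not tested. Raw counts of MYC were as low as 16 in a library and those of PPAN as low as 14, which limits the precision of their levels.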
